A study of Mus musculus with 24 samples.

Results

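The genes described here are 50 genes of ribosome biogenesis and of the nucleolus, out of 22009 named genes in the deposited table of CD4+ T cell RNA sequencing. They were listed by name and role, with a rule that uses no measured value, but earlier results of these data were known at the choice. The list holds 7 genes of RNA polymerase I transcription, 4 proteins of the box C/D small nucleolar ribonucleoproteins (snoRNPs), 4 proteins of the box H/ACA snoRNPs, 17 factors of the small ribosomal subunit, 12 factors of the large subunit and 6 abundant nucleolar proteins with several tasks. The study followed CD4+ T cells of WT C57BL/6 adult mice, taken from spleen by magnetic negative selection and pooled across mice, through the first 24 h of T helper (Th) culture. All cultures received anti-CD3 and anti-CD28; Th0 cultures received nothing further, Th1 cultures also anti-IL-4 and IL-12, and Th2 cultures also IL-4 with antibodies to IL-12 and IFN-γ. Resting cells gave 2 libraries, and each of the 3 conditions gave 1 library at 4, 8, 12, 16, 20 and 24 h. A further 4 libraries followed 16 h of stimulation and then 0, 1, 2 or 4 h with actinomycin, which stops transcription. The labels do not give the skewing condition of the actinomycin cultures. The resting libraries carry another number in their titles than the cultures, so that the contrast with resting cells and this tag cannot be told apart.

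Ribosomes are assembled mainly in the nucleolus. RNA polymerase I copies the ribosomal DNA into a long precursor rRNA, and snoRNPs guide the methylation and pseudouridylation of its nucleotides. Large groups of assembly factors cut and fold the precursor into the small and the large subunit before export to the cytoplasm. Resting T cells are small cells with little ribosome production, and antigen receptor stimulation is known to make them grow and enlarge their nucleoli before they divide.

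Sequences from the reference show features that the choice of genes did not use. Of the 50 genes, 44 had a promoter entry in RefSeq (GRCm38.p6; 250 bases before to 50 bases after the start). The letters CACGTG, the E-box bound by MYC and related factors and the same on both strands, were in this window of 10 of the 44, against 10.6% of 8303 promoters of genes that reached a mean of 1 RPKM in the time course and 7.24% of all 27025 promoters. The letters CCGGAAGT, a binding sequence of ETS factors, were in 11 of the 44 when both strands were read, against 9.35% and 4.00%. The GC box GGGCGG was in 33, against 65.2% and 35.9%. The CCAAT letters were in 18, against 39.8% and 37.9%. The TATA box TATAAA was in 2, against 6.50% and 14.2%, and the NRF1 motif was in 0, against 2.30% and 0.977%. These are matches of letters and were not tested as binding sites. The E-box lay before the start in Rrn3, Nop2, Utp18 and Imp4 and within the first transcribed bases in the other 6 genes. The 250 bases before the start of those 4 genes are shown with CACGTG in capitals, chosen after the motif search, so that the position and number of the E-boxes can be seen.
Rrn3 (chr16:13780449-13780698, plus strand): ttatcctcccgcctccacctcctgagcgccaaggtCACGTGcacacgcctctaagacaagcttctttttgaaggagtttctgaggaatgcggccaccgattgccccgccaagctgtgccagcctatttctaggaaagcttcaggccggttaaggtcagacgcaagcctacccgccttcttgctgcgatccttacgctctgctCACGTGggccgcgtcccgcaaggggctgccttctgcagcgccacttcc
Nop2 (chr6:125131633-125131882, plus strand): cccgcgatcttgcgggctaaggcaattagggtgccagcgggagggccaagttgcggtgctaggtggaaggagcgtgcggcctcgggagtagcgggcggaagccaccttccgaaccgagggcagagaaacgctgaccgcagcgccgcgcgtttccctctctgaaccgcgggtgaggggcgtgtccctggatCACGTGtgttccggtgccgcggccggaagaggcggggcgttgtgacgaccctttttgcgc
Utp18 (chr11:93885767-93886016, minus strand): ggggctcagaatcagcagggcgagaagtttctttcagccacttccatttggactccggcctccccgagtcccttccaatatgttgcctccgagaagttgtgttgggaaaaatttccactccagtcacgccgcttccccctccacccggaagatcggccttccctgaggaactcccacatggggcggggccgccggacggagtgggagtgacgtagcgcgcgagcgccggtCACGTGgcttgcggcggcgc
Imp4 (chr1:34439579-34439828, plus strand): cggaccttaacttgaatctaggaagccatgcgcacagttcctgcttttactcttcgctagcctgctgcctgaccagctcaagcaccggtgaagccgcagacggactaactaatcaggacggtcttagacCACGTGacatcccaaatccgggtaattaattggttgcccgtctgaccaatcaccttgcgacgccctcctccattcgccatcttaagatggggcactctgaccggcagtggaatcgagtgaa
Counted from the start, the E-boxes began at -215 and -48 in Rrn3, at -60 in Nop2, at -20 in Utp18 and at -121 in Imp4.

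Besides coding for proteins, 7 of the 50 genes (Nop56, Nop58, Dkc1, Wdr43, Tsr1, Ncl and Gnl3) held 21 genes of small nucleolar or small Cajal body RNAs on their own strand in the GENCODE vM21 annotation of GRCm38, all of them in introns of the principal transcript. Of 10382 protein-coding genes that reached this mean, 1.92% held such a gene. In vertebrates these RNAs are mostly cut out of introns of their host's transcript, and the snoRNPs use them as guides. The snoRNAs themselves were not analysed here. Of 10 genes with a Snord name, 6 held the letters TGATGA of box C. The sequences shown are 4 of these, from Nop56, Nop58, Ncl and Gnl3. The letters TGATGA and the last CTGA, the letters of box D, are in capitals. The others, Snord53 and Snord92 in Wdr43, are not shown.
Snord110 (in Nop56, chr2:130275506-130275573, plus strand): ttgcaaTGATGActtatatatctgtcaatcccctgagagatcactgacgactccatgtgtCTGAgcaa
Snord11 (in Nop58, chr1:59704790-59704873, plus strand): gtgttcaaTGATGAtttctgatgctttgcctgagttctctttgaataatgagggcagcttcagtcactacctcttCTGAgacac
Snord82 (in Ncl, chr1:86356261-86356330, minus strand): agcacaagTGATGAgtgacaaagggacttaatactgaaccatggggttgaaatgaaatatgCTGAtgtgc
Snord69 (in Gnl3, chr14:31014287-31014366, minus strand): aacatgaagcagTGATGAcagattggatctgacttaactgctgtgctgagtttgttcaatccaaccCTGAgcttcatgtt
Both boxes lay close to the ends in the 4 shown, the arrangement by which the proteins Nop56, Nop58 and fibrillarin hold such an RNA. The last CTGA lay near the end in Snord92 but near the middle in Snord53.

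The values are RPKM, reads scaled to gene length and to the mapped reads of the library, so each is a share of its library. Mapped reads, recovered from the steps between low values, ran from 17512385 to 33017133 per library. For the 20 of the 50 genes whose values were whole multiples of 1 step, a library held 470 to 16933 reads of a gene, and the exact Poisson 95% interval, which covers counting error only, was at most 9.15% of the value on either side. The 7 markers of CD4 T cells summed to 1843 to 1859 RPKM in resting libraries and to 1147 to 1489 RPKM at 4 and 8 h. The 9 macrophage and monocyte markers summed to 567 to 587 RPKM in resting libraries and to 8.09 to 12.6 RPKM at 24 h, and 7 genes of red cells held 6.39% and 7.01% of all RPKM at rest and 0.0237% to 0.0336% at 24 h. The 6 B cell markers summed to 67.2 to 77.5 RPKM at rest and to 9.49 to 18.5 RPKM at 24 h, the 3 NK cell markers to 36.2 to 37.3 and 4.75 to 6.88 RPKM, the 2 CD8 markers to 12.4 to 12.7 and 7.44 to 11.9 RPKM, and the 5 neutrophil markers to 3.54 to 4.20 and 0.58 to 2.10 RPKM, with the defining marker Ly6g at 0 in all of these libraries. The part of these other cells in the results below was not tested, and in bulk RNA fewer cells of a type and less RNA per cell cannot be told apart.

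Nearly all of the 50 genes were higher in stimulated than in resting cells, but not at once. Calls needed 2-fold or more on the log2(RPKM + 0.5) scale together with a limma adjusted p below 0.05. The test covered 10897 genes whose mean reached 1 RPKM, and all 50 genes passed that filter. At 4 h, 1 gene was higher than in resting cells (Noc4l) and 1 was lower (Ubtf), against 2.61% and 7.97% of all genes tested. At 8 h, 40 of 50 were higher, against 6.42% of all genes. At 12 h, 48 were higher, against 10.7%. Later counts were 47 at 16 h, 48 at 20 h and 47 at 24 h, against 11.2%, 12.9% and 12.7%. None was lower from 8 h on. The median log2 difference of the 50 genes was 0.27 at 4 h, 1.36 at 8 h, 1.71 at 12 h and 1.59 at 24 h (a 3.01-fold rise), whereas the median of all genes lay at -0.04 at 24 h. In the 12 cultures of 12 to 24 h together, 49 of 50 genes were above both resting libraries in every culture, which held for 30.6% of all genes, and the exception was Ubtf. Since the 3 libraries of a time point are the 3 conditions, made from pooled cells, the p-values measure the spread between these cultures and not between animals.

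**Figure D1:**
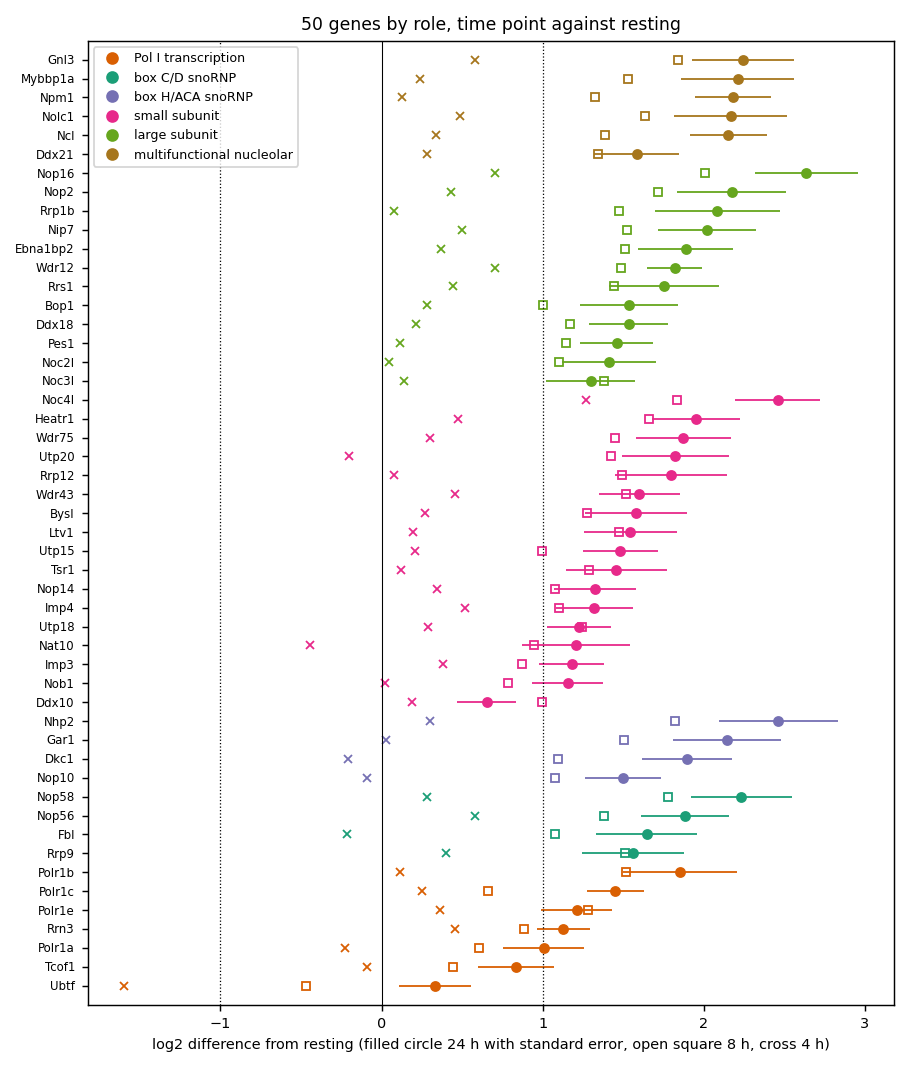
Log2 difference from resting cells for each of the 50 genes, coloured by role, on the log2(RPKM + 0.5) scale: filled circles are 24 h with the standard error of the limma fit, open squares 8 h and crosses 4 h, and dotted lines mark 2-fold. The crosses of Ubtf at -1.60 and Noc4l at 1.27 lie past the 2-fold lines and all other crosses between them, and at 24 h every circle lies to the right of 0, from 0.33 for Ubtf to 2.64 for Nop16.

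The RNA polymerase I group had the lowest median log2 difference of the 6 role groups at 24 h, 1.13, with 5 of 7 genes higher. Polr1c stood at 49.3 and 44.7 RPKM in the resting libraries. Polr1c was at 46.2, 55.98 and 67.97 RPKM in Th0, Th1 and Th2 at 4 h, at 58.5, 87.05 and 80.9 RPKM in Th0, Th1 and Th2 at 8 h, and between 92.6 and 142 RPKM with a median of 116 RPKM in the 12 cultures of 12 to 24 h. Polr1c, a subunit that RNA polymerases I and III share, was the most abundant of the group, and at 24 h it was 2.73-fold above resting cells (log2 difference 1.45 ± 0.18 (SE), limma adjusted p = 3.17e-06). Polr1b stood at 17.5 and 19.7 RPKM in the resting libraries. Polr1b was at 15.7, 17.5 and 29.5 RPKM in Th0, Th1 and Th2 at 4 h, at 27.2, 62.7 and 92.5 RPKM in Th0, Th1 and Th2 at 8 h, and between 58.6 and 90.1 RPKM with a median of 75.9 RPKM in the 12 cultures of 12 to 24 h. The second largest subunit, Polr1b, had no culture at 4 h above its resting libraries other than Th2, and its rise at 24 h was 3.61-fold (log2 difference 1.85 ± 0.35 (SE), limma adjusted p = 2.40e-04). The largest subunit, Polr1a, reached 2.01-fold, close to the 2-fold limit. Rrn3, the initiation factor TIF-IA that makes the polymerase able to start, was above both resting libraries in all 18 cultures and reached 2.19-fold at 24 h. Polr1e, another polymerase subunit, rose as well. Tcof1, the nucleolar protein treacle, passed the adjusted p but not 2-fold, at 1.78-fold at 24 h (log2 difference 0.83 ± 0.23 (SE), limma adjusted p = 0.00508).

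Ubtf, which codes for the factor UBF that occupies the ribosomal DNA and opens it for RNA polymerase I, was the 1 gene of the group called at 4 h, and it was lower. Ubtf stood at 91.03 and 85.5 RPKM in the resting libraries. Ubtf was at 25.6, 25.04 and 37.3 RPKM in Th0, Th1 and Th2 at 4 h, at 47.3, 66.3 and 82.4 RPKM in Th0, Th1 and Th2 at 8 h, and between 84.3 and 145 RPKM with a median of 110.2 RPKM in the 12 cultures of 12 to 24 h. All 3 cultures at 4 h were far below both resting libraries. The groups did not overlap, which held in this direction for 3 of the 50 genes and 33.9% of all genes tested. The level at 4 h was 0.330 of that in resting cells (log2 difference -1.60 ± 0.22 (SE), limma adjusted p = 5.05e-05). It then rose 2.19-fold from 4 to 8 h (log2 difference 1.13 ± 0.13 (SE), limma adjusted p = 6.18e-05). At 24 h it stood at 1.26 times the resting level, which did not pass the test (log2 difference 0.33 ± 0.22 (SE), limma adjusted p = 0.202). Of the 50 genes, its course over the 20 libraries was the least like the median course of the others, with a Pearson r of 0.74. Ddx10 came next at 0.80, and 48 genes had an r of at least 0.90 (median 0.98); these describe 1 shared set of libraries and carry no p.

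**Figure D2:**
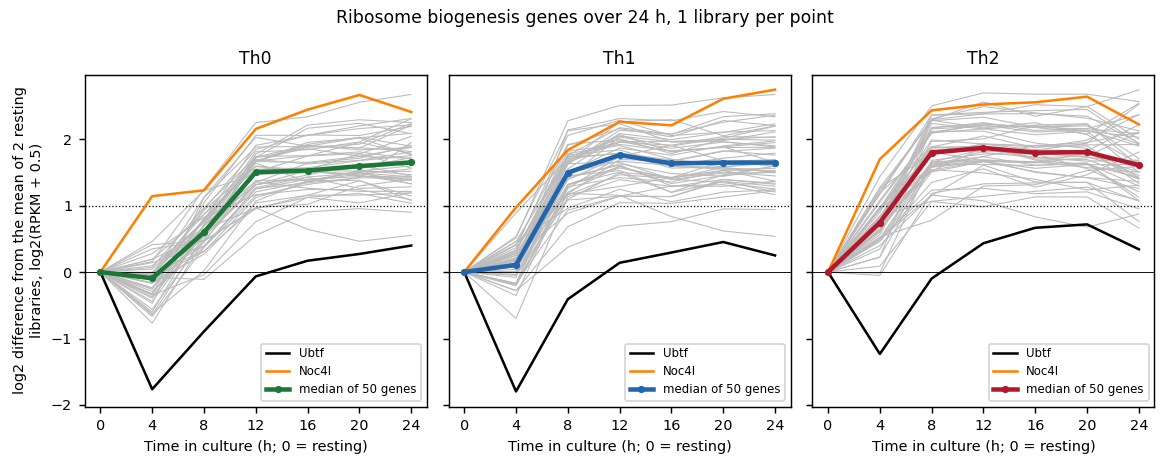
Log2 difference from the mean of the 2 resting libraries against time, in h, for all 50 genes (thin grey lines), Ubtf (black), Noc4l (orange) and the median of the 50 genes (thick line with dots), for Th0, Th1 and Th2, with 1 library per point and 2-fold dotted. The median crossed 2-fold between 4 and 8 h in Th1 and Th2 and between 8 and 12 h in Th0, and it stayed between 1.50 and 1.87 from 12 h on in all 3 conditions.

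All 4 proteins of the box C/D snoRNPs, the particles that methylate rRNA, were higher from 8 h on, with a median log2 difference of 1.45 at 8 h and 1.76 at 24 h. Nop56 stood at 171 and 183 RPKM in the resting libraries. Nop56 was at 202, 215 and 425 RPKM in Th0, Th1 and Th2 at 4 h, at 324, 498 and 609 RPKM in Th0, Th1 and Th2 at 8 h, and between 517 and 763 RPKM with a median of 589 RPKM in the 12 cultures of 12 to 24 h. Nop56, a core protein, was above both resting libraries in all 18 cultures and stood 3.69-fold above them at 24 h (log2 difference 1.88 ± 0.27 (SE), limma adjusted p = 1.99e-05). Nop58 stood at 53.7 and 49.7 RPKM in the resting libraries. Nop58 was at 37.2, 66.7 and 101 RPKM in Th0, Th1 and Th2 at 4 h, at 113, 216 and 234 RPKM in Th0, Th1 and Th2 at 8 h, and between 189.8 and 268 RPKM with a median of 228 RPKM in the 12 cultures of 12 to 24 h. Its partner Nop58 had the largest rise of the group, 4.71-fold (log2 difference 2.23 ± 0.32 (SE), limma adjusted p = 1.48e-05). Rrp9 stood at 30.6 and 32.5 RPKM in the resting libraries. Rrp9 was at 31.1, 35.3 and 65.7 RPKM in Th0, Th1 and Th2 at 4 h, at 50.98, 106 and 138 RPKM in Th0, Th1 and Th2 at 8 h, and between 80.1 and 139 RPKM with a median of 112 RPKM in the 12 cultures of 12 to 24 h. Rrp9, which belongs to the U3 snoRNP, had the smallest, 2.95-fold (log2 difference 1.56 ± 0.32 (SE), limma adjusted p = 4.30e-04). Fbl, the methyltransferase fibrillarin, stood in between at 3.13-fold. Its 4 h values, 51.6, 71.6 and 96.3 RPKM, lay on both sides of its resting values of 92.8 and 72.9 RPKM.

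The 4 proteins of the box H/ACA snoRNPs, which pseudouridylate rRNA, were also all higher from 8 h on, and their median log2 difference of 2.02 at 24 h was the second highest of the 6 role groups. Dkc1 stood at 76.8 and 75.7 RPKM in the resting libraries. Dkc1 was at 44.5, 66.1 and 96.99 RPKM in Th0, Th1 and Th2 at 4 h, at 106, 173 and 236 RPKM in Th0, Th1 and Th2 at 8 h, and between 195 and 289.8 RPKM with a median of 263 RPKM in the 12 cultures of 12 to 24 h. Dkc1, the pseudouridine synthase dyskerin, was lower in Th0 and Th1 at 4 h than in either resting library and 3.73-fold above them at 24 h (log2 difference 1.90 ± 0.28 (SE), limma adjusted p = 2.09e-05). Nhp2 stood at 37.4 and 30.96 RPKM in the resting libraries. Nhp2 was at 26.9, 34.2 and 80.3 RPKM in Th0, Th1 and Th2 at 4 h, at 70.6, 151 and 168 RPKM in Th0, Th1 and Th2 at 8 h, and between 143 and 230.4 RPKM with a median of 172 RPKM in the 12 cultures of 12 to 24 h. Nhp2, an RNA-binding core protein, rose 5.52-fold by 24 h (log2 difference 2.46 ± 0.37 (SE), limma adjusted p = 2.63e-05), and its Th2 culture at 24 h held the highest value of the time course. Nop10 stood at 38.9 and 35.1 RPKM in the resting libraries. Nop10 was at 28.4, 28.8 and 51.1 RPKM in Th0, Th1 and Th2 at 4 h, at 55.2, 92.8 and 94.9 RPKM in Th0, Th1 and Th2 at 8 h, and between 90.3 and 130.4 RPKM with a median of 101 RPKM in the 12 cultures of 12 to 24 h. Nop10, the smallest core protein, rose 2.83-fold (log2 difference 1.50 ± 0.24 (SE), limma adjusted p = 4.32e-05). Gar1, the fourth, stood at a log2 difference of 2.14.

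Of the 17 small subunit factors, 12 were higher at 8 h and 16 at 24 h, with a median log2 difference of 1.48 at 24 h. Noc4l stood at 20.5 and 21.03 RPKM in the resting libraries. Noc4l was at 46.5, 41.3 and 68.6 RPKM in Th0, Th1 and Th2 at 4 h, at 49.4, 75.5 and 114 RPKM in Th0, Th1 and Th2 at 8 h, and between 94.2 and 142 RPKM with a median of 119 RPKM in the 12 cultures of 12 to 24 h. Noc4l, the homologue of a yeast factor that works with Nop14 on the early precursor, was the most abundant by mean, had the largest rise, and was the 1 gene of the 50 called higher at 4 h, at 2.41-fold (log2 difference 1.27 ± 0.26 (SE), limma adjusted p = 0.00145). Its cultures at 4 h were all above both resting libraries, which held for 9 of the 50 genes and 23.9% of all genes tested. By 24 h Noc4l stood 5.50-fold above the resting libraries (log2 difference 2.46 ± 0.26 (SE), limma adjusted p = 8.69e-07). Ddx10 stood at 25.9 and 22.8 RPKM in the resting libraries. Ddx10 was at 21.5, 28.96 and 34.4 RPKM in Th0, Th1 and Th2 at 4 h, at 38.1, 55.9 and 54.8 RPKM in Th0, Th1 and Th2 at 8 h, and between 33.7 and 54.7 RPKM with a median of 41.3 RPKM in the 12 cultures of 12 to 24 h. Ddx10, an RNA helicase, was the 1 gene of the group that did not reach 2-fold at 24 h, at 1.57-fold (log2 difference 0.65 ± 0.18 (SE), limma adjusted p = 0.00515). Its highest values were at 8 h in Th1 and Th2 and at 12 h in Th0, and the fall from 8 to 24 h had a log2 difference of -0.34 ± 0.12 (SE, limma adjusted p = 0.0228), short of 2-fold. The scaffold proteins of the small subunit processome (Utp15, Utp18, Utp20, Wdr43, Wdr75 and Heatr1) had log2 differences of 1.23 to 1.95 at 24 h. Utp20, the lowest of these at rest with 8.25 and 8.29 RPKM, had the largest step of all 50 genes from 4 to 8 h, 3.09-fold. Imp3 and Imp4, partners of the U3 snoRNA, rose 2.27-fold and 2.50-fold. The late factors Nob1, which cuts the rRNA end last, Ltv1, Tsr1 and Rrp12 rose 2.23-, 2.92-, 2.75- and 3.47-fold. The rRNA acetyltransferase Nat10 rose 2.31-fold after 4 h values of 15.2, 14.5 and 23.5 RPKM, all below its resting 23.7 and 23.9 RPKM. Nop14 and Bysl completed the group at 2.51- and 2.99-fold.

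All 12 large subunit factors were higher at 8 h and at 24 h, with median log2 differences of 1.46 and 1.79. Ddx18 stood at 57.7 and 56.7 RPKM in the resting libraries. Ddx18 was at 53.9, 60.9 and 89.2 RPKM in Th0, Th1 and Th2 at 4 h, at 83.4, 143 and 182 RPKM in Th0, Th1 and Th2 at 8 h, and between 143 and 190.0 RPKM with a median of 168 RPKM in the 12 cultures of 12 to 24 h. Ddx18, an RNA helicase and the most abundant of the group, whose transcript shares much of its sequence with other gene models, rose 2.90-fold by 24 h (log2 difference 1.54 ± 0.25 (SE), limma adjusted p = 4.91e-05). Nop16 stood at 17.97 and 15.8 RPKM in the resting libraries. Nop16 was at 18.9, 24.3 and 46.5 RPKM in Th0, Th1 and Th2 at 4 h, at 40.8, 83.7 and 97.9 RPKM in Th0, Th1 and Th2 at 8 h, and between 82.1 and 112 RPKM with a median of 104 RPKM in the 12 cultures of 12 to 24 h. Nop16 had the largest rise of all 50 genes at 24 h, 6.22-fold (log2 difference 2.64 ± 0.32 (SE), limma adjusted p = 3.25e-06), and all 18 cultures were above both resting libraries. Noc3l stood at 10.98 and 9.93 RPKM in the resting libraries. Noc3l was at 7.84, 11.3 and 17.4 RPKM in Th0, Th1 and Th2 at 4 h, at 17.3, 33.4 and 37.8 RPKM in Th0, Th1 and Th2 at 8 h, and between 25.5 and 34.5 RPKM with a median of 28.04 RPKM in the 12 cultures of 12 to 24 h. Noc3l had the smallest rise of the group, 2.46-fold (log2 difference 1.30 ± 0.28 (SE), limma adjusted p = 6.48e-04). Pes1, Bop1 and Wdr12, which form the PeBoW complex, rose 2.75-, 2.90- and 3.53-fold. At 4 h Wdr12 stood at 1.63 times its resting level, with all 3 cultures (28.5, 38.6 and 35.1 RPKM) above its resting 21.7 and 19.5 RPKM (log2 difference 0.70 ± 0.17 (SE), limma adjusted p = 0.00487), whereas Pes1 and Bop1 had log2 differences of 0.12 and 0.28; the difference between the subunits was not tested. Nop2, an rRNA cytosine methyltransferase, and Rrp1b rose 4.51- and 4.24-fold. The remaining factors Rrs1, Noc2l, Ebna1bp2 and Nip7 rose 3.37-, 2.66-, 3.70- and 4.05-fold.

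The 6 multifunctional nucleolar proteins had the highest median log2 difference at 24 h, 2.17, and all 6 were called from 8 h on. Npm1 stood at 804 and 761 RPKM in the resting libraries. Npm1 was at 654, 863 and 1113 RPKM in Th0, Th1 and Th2 at 4 h, at 1374, 2221 and 2461 RPKM in Th0, Th1 and Th2 at 8 h, and between 2272 and 4509 RPKM with a median of 2840.5 RPKM in the 12 cultures of 12 to 24 h. Npm1, the abundant chaperone nucleophosmin, made up 26.8% to 42.7% of the summed RPKM of the 50 genes in the time course. It rose 4.53-fold by 24 h (log2 difference 2.18 ± 0.23 (SE), limma adjusted p = 9.12e-07). Gnl3 stood at 35.4 and 35.4 RPKM in the resting libraries. Gnl3 was at 33.99, 51.5 and 86.1 RPKM in Th0, Th1 and Th2 at 4 h, at 77.7, 156 and 173 RPKM in Th0, Th1 and Th2 at 8 h, and between 133 and 208 RPKM with a median of 151 RPKM in the 12 cultures of 12 to 24 h. Gnl3, the GTP-binding protein nucleostemin, rose 4.74-fold (log2 difference 2.25 ± 0.32 (SE), limma adjusted p = 1.43e-05). Ddx21 stood at 68.8 and 65.6 RPKM in the resting libraries. Ddx21 was at 59.95, 78.3 and 116 RPKM in Th0, Th1 and Th2 at 4 h, at 109, 192 and 242 RPKM in Th0, Th1 and Th2 at 8 h, and between 187 and 246 RPKM with a median of 203 RPKM in the 12 cultures of 12 to 24 h. Ddx21, a helicase of rRNA transcription and processing, rose 2.997-fold (log2 difference 1.58 ± 0.27 (SE), limma adjusted p = 7.46e-05). Nucleolin (Ncl), Nolc1, a chaperone of snoRNPs, and the Myb-binding protein Mybbp1a rose 4.45-, 4.50- and 4.63-fold.

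The median of the 50 genes changed most from 4 to 8 h in Th1 and Th2 and from 8 to 12 h in Th0. From 4 to 8 h, in a fit of the 18 cultures with time point and condition, all 50 genes were higher at an adjusted p under 0.05, against 20.0% of 10737 genes, and 32 passed 2-fold as well, against 3.05%. The median log2 difference of this step was 1.09, with a range from 0.41 (Polr1c) to 1.63 (Utp20). Without the Th1 cultures 14 genes passed instead of 32, with a median of 0.93. The share of all genes in that smaller fit is not given here. Within Th0 the median log2 difference from resting cells went from -0.09 at 4 h to 0.60 at 8 h and to 1.50 at 12 h, whereas from 4 to 8 h it went from 0.11 to 1.50 in Th1 and from 0.75 to 1.80 in Th2. From 8 to 12 h the median was 0.42, and limma called none of the 50 genes in this step, against 0.149% of all genes called higher, or in the steps from 12 to 16, 16 to 20 and 20 to 24 h, against 0.289%, 0.447% and 0.512% called in either direction, where the medians were -0.01, 0.05 and -0.05. At an unadjusted p under 0.05, 25, 1, 0 and 1 of the 50 genes passed in those 4 steps, in that order, against 26.2%, 10.0%, 12.5% and 13.9% of all genes. From 8 to 24 h limma also called 0 higher at 2-fold, against 4.80%. At an adjusted p under 0.05 alone 16 genes were higher, among them Npm1 at 1.81-fold and Dkc1 at 1.75-fold, and 1 was lower (Ddx10), against 26.4% and 25.6% of all genes.

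Summed, the 50 genes held 0.433% and 0.418% of all RPKM in the resting libraries. At 4 h the sum was 0.393%, 0.479% and 0.655% in Th0, Th1 and Th2, and at 8 h it was 0.685%, 1.17% and 1.46%. From 12 to 24 h it went from 1.21% to 1.51% in Th0, and lay between 1.37% and 1.53% in Th1 and between 1.57% and 1.64% in Th2. Th2 was the highest and Th0 the lowest at each of the 6 time points, with 1 library each. Without Npm1 the 24 h values were 0.983%, 1.02% and 0.942% in Th0, Th1 and Th2, so that at this time Th2 was the lowest. Red cell genes held 4.70%, 3.18% and 2.53% of all RPKM at 8 h in the Th0, Th1 and Th2 cultures and 5.90%, 5.05% and 7.44% at 4 h. With these genes left out of each library's total, the median log2 difference of the 50 genes from resting cells at 8 h was 1.31 instead of 1.36. For the step from 4 to 8 h it was 1.05 instead of 1.09.

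**Figure D3:**
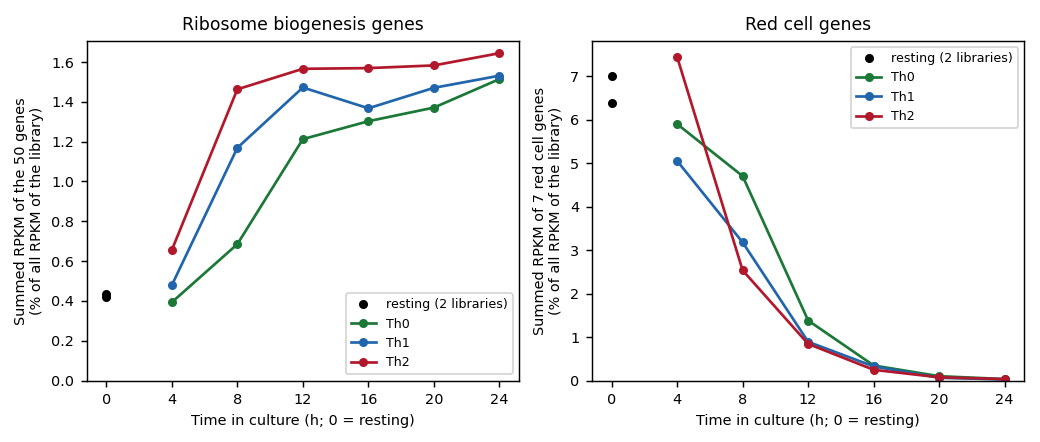
Summed RPKM as a percentage of all RPKM of each library against time in h, for the 50 ribosome biogenesis genes (left) and for 7 red cell genes (right), with 2 resting libraries (black) and 1 library per point for Th0, Th1 and Th2. The left panel goes from 0.418% and 0.433% to 1.51% to 1.64% at 24 h with Th0 lowest at every time, and the right panel goes from 6.39% and 7.01% to at most 0.0336%.

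Th2 cultures were ahead of Th0 cultures at 4 and 8 h, and the gap was small later. Over all 6 time points, limma called 0 of 50 genes at 2-fold in any of the 3 pairs of conditions, against 0.186% of all genes higher in Th2 than in Th0, 0.568% in Th2 than in Th1 and 0.177% in Th1 than in Th0. At an adjusted p under 0.05 alone, 43 were higher in Th2 than in Th0, against 12.9% of 10737 genes, and the median log2 difference was 0.50 (from 0.19 for Rrn3 to 0.72 for Nhp2), positive for all 50. Each condition is 1 series of cultures from pooled cells. The p-values of this fit thus measure how steady a difference was over the 6 time points, not the spread between animals or repeated cultures. Between Th2 and Th1, 2 genes, Nop56 and Ubtf, were higher in Th2 at an adjusted p under 0.05 alone, against 3.49%, and the median was 0.23. Between Th1 and Th0 there were 0, against 0.522% (median 0.26), with 17 of the 50 higher in Th1 at an unadjusted p under 0.05, against 6.19% of all genes. In Th2, 10 genes first reached 2-fold over resting cells at 4 h and 38 at 8 h. In Th1, 44 did so at 8 h, and in Th0, 5 did so at 8 h and 37 at 12 h. Of 10897 genes, 4.63% and 11.8% were at least 2-fold over resting cells in Th2 at 4 and 8 h, for the first time or not. The share was 8.50% in Th1 at 8 h, and 3.44% and 8.80% in Th0 at 8 and 12 h. At single time points each condition is 1 library, so the following values carry no test. At 4 h, 20 genes were at least 2-fold higher in Th2 than in Th0, against 2.58% of all genes. At 8 h, 36 were, against 5.90%, with a median log2 difference of 1.15. From 12 h on there were 0, against at most 0.745% of all genes, and the medians were 0.41 at 12 h and 0.25, 0.18 and -0.03 at 16, 20 and 24 h. Th1 stood between the others at 8 h, with 11 genes at least 2-fold above Th0, against 1.72%, and 0 genes were at least 2-fold higher in Th2 than in Th1, against 0.699%.

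Single genes show the size of this early gap. Nhp2, the core protein of box H/ACA snoRNPs, had the largest Th2 to Th0 ratio at 4 h, and by 8 h it stood at 70.6, 151 and 168 RPKM in Th0, Th1 and Th2 at 8 h. Th1 was then close to Th2 and Th0 far below both. Rrp1b had the largest ratio then, with 28.1, 62.5 and 98.8 RPKM in Th0, Th1 and Th2 at 8 h. Its values at 20 h, 95.1, 86.5 and 102 RPKM in Th0, Th1 and Th2, lay nearer to each other. Wdr12 had the smallest such gap, with 48.9, 68.4 and 59.9 RPKM in Th0, Th1 and Th2 at 8 h. A fit with a term for the period, chosen after these values were seen, tested whether the Th2 to Th0 difference at 4 and 8 h was larger than at 12 to 24 h. It called 13 of the 50 genes, all with a larger early difference, against 1.93% of 10737 genes (Polr1b, Rrp9, Gar1, Nhp2, Rrp12, Tsr1, Bysl, Nop2, Nop16, Rrs1, Rrp1b, Nolc1 and Mybbp1a). The largest was Rrp1b (log2 difference 1.37 ± 0.22 (SE), limma adjusted p = 0.00319), and the median over the 50 genes was 0.82. These p-values too rest on 1 series of cultures per condition. The late period holds the Th2 library of 24 h, whose relation to GC content is given below. In this fit limma called 0 of the 50 for the pair Th2 and Th1, against 0.0652% of all genes, and 0 for Th1 and Th0, against 0.0279%, with 22 and 29 genes at an unadjusted p under 0.05, against 10.8% and 9.49% of all genes.

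**Figure D4:**
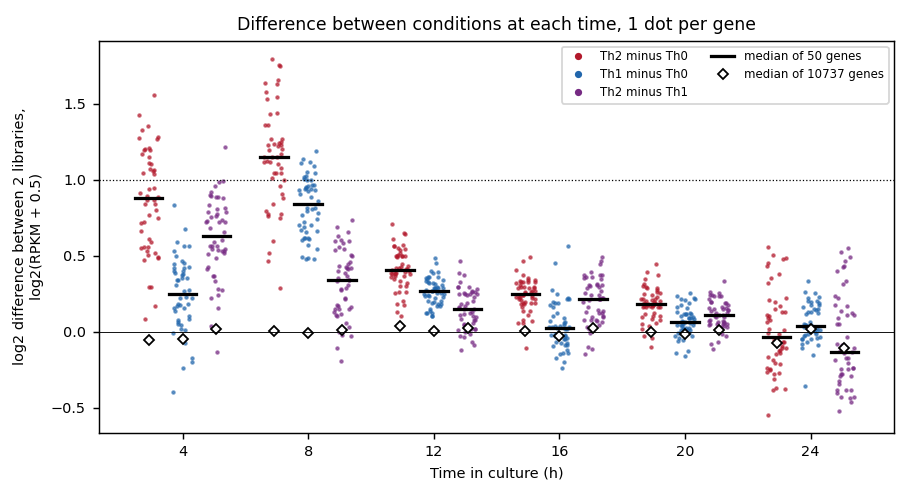
Log2 difference between the libraries of each pair of conditions at each time point, on the log2(RPKM + 0.5) scale, with 1 dot per gene for the 50 genes, their median as a black bar and the median of 10737 genes as a white diamond. The Th2 minus Th0 dots lie around 0.88 at 4 h and 1.15 at 8 h, above 0 for all 50 genes, and at 24 h the medians of the 3 pairs are -0.03 for Th2 minus Th0, -0.13 for Th2 minus Th1 and 0.04 for Th1 minus Th0.

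The Th2 library of 24 h stood apart among these genes. From 20 to 24 h in Th2, Npm1 went from 3000.3 to 4509 RPKM, Gnl3 from 151 to 208 RPKM and Wdr75 from 106 to 139.6 RPKM. In the same step Mybbp1a went from 395 to 281 RPKM, Rrp12 from 40.4 to 25.9 RPKM and Polr1a from 38.1 to 25.2 RPKM. The first 3 genes have a lower GC content in their longest transcript, 42.4% for Npm1, 46.3% for Gnl3 and 44.4% for Wdr75, than the other 3, 53.7% for Mybbp1a, 55.8% for Rrp12 and 51.1% for Polr1a. Across the 50 genes, the log2 change from 20 to 24 h in Th2 had a Pearson r of -0.62 and a Spearman rho of -0.63 with GC content. Across 10382 expressed protein-coding genes the values were -0.51 and -0.53, and in the same step r over the 50 genes was -0.30 in Th0 and -0.18 in Th1. Over the 50 genes, the Th2 minus Th0 difference had a Pearson r with GC content of 0.41 at 8 h and -0.52 at 24 h. At 4 h it was 0.02. Over the 10382 genes the values were 0.14 at 8 h, -0.28 at 24 h and -0.05 at 4 h. All these correlations describe genes of the same libraries, which are not independent, and carry no p. The part of base composition in the Th2 values of 24 h, in the gap at 8 h and in the early minus late calls was not tested. Without the Th2 cultures, 47 of the 50 genes were called at 24 h, against 1368 of 10941 genes higher.

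The actinomycin libraries ask which of these transcripts were lost fastest once transcription stopped. Each time was sequenced once and RPKM are shares of what is left, so the values are relative to the other transcripts and carry no test. Against the mean of the 3 cultures of 16 h, the 0 h library had a median log2 difference of 0.10 over the 50 genes, and it lay inside the range of the 3 cultures for 15 genes, above it for 23 and below it for 12. The median log2 difference of the 50 genes from the 0 h library was -0.01 at 1 h and -0.29 at 2 h. At 4 h, 43 of 50 genes were lower than at 0 h, against 50.1% of 10571 genes. The median log2 difference at 4 h was -0.42 against -0.00 for all genes. At least 2-fold lower at 4 h were 5 of 50, against 5.43% of all genes, and 0 of 50 were at least 2-fold higher, against 3.62%. Ddx10 had the lowest difference, with 67.2, 49.4, 37.6 and 18.1 RPKM at 0, 1, 2 and 4 h, a log2 difference of -1.87, and 0.369% of all genes had a lower one. Rrs1, a factor that brings a small rRNA into the large subunit, went through 43.2, 38.4, 16.4 and 14.1 RPKM. Imp3 went through 85.8, 66.5, 39.04 and 28.99 RPKM. Rrn3, the initiation factor of RNA polymerase I, went through 29.1, 23.7, 14.2 and 11.5 RPKM. Utp18 went through 65.2, 51.1, 38.8 and 30.6 RPKM. All 5 were lower at each successive time, as were 18 of the 50 genes in all, against 12.96% of 10571 genes. Just short of 2-fold were Ddx21 (-0.98) and Nop58 (-0.95).

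By role, all 17 small subunit factors were lower at 4 h, with a median log2 difference of -0.70, as were 11 of 12 large subunit factors (median -0.50) and all 4 box C/D proteins (median -0.37). Of the 6 multifunctional nucleolar proteins, 5 were lower (median -0.42). The box H/ACA proteins had a median of -0.03, and in the RNA polymerase I group 4 of 7 were lower (median -0.13). With the highest differences, Tcof1 went through 66.3, 79.7, 57.7 and 78.2 RPKM, Polr1b through 62.05, 67.3, 51.03 and 72.2 RPKM and nucleolin through 374, 467, 404 and 419.6 RPKM. Ubtf, low at 4 h of culture, went through 141, 148, 138 and 150.4 RPKM. The 0, 1, 2 and 4 h libraries of Npm1 held 3449.5, 3461, 3567 and 2427 RPKM. Over the 50 genes, which share these libraries, the log2 difference had a Pearson r of 0.06 with transcript length and of 0.38 with GC content, and over 10382 genes 0.25 with GC content; their part in the order of the genes was not tested.

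**Figure D5:**
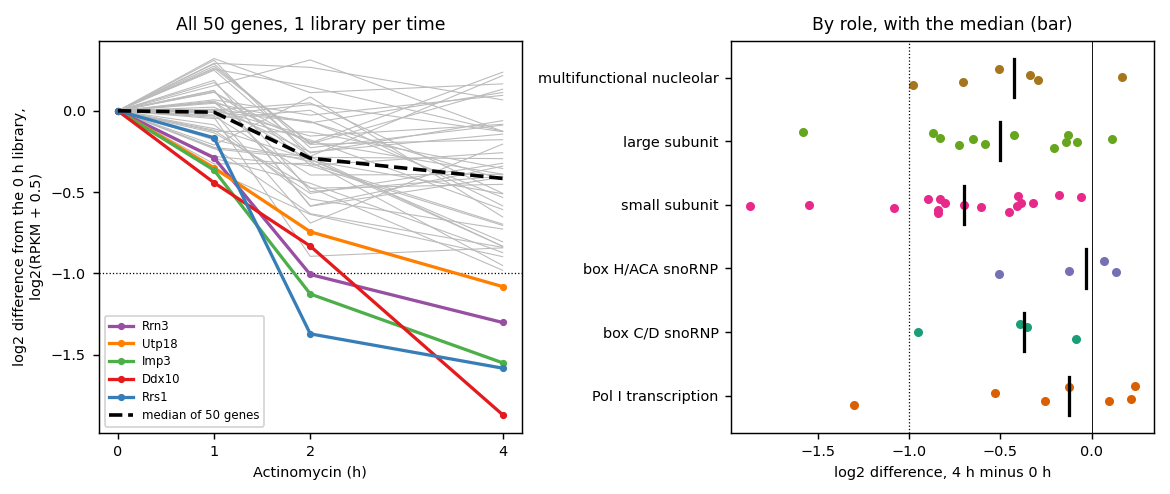
Left, log2 difference from the 0 h library against hours with actinomycin for the 50 genes (grey), the 5 genes at least 2-fold lower at 4 h (coloured) and the median of the 50 (dashed), with 1 library per time and 2-fold dotted. Right, the log2 difference of 4 h minus 0 h of each gene by role, with the median of each role group as a bar: the small subunit factors lie lowest, at a median of -0.70, and the box H/ACA proteins near 0.

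Other genes of the same pathway, listed by role, had smaller median differences. Of all genes tested, 12.7% were higher at 24 h. Of 39 further small subunit genes in the table, 28 were higher at 24 h than in resting cells (median log2 difference 1.21), and of 38 further large subunit genes 23 were (median 1.22); limma called none of either list lower, against 17.4% of all genes. Pno1, a small subunit factor, rose most of its list, from a mean of 19.01 RPKM at rest to 89.6 RPKM at 24 h (limma adjusted p = 6.92e-06), and Ddx47 had the lowest difference of that list, from a mean of 69.1 RPKM at rest to 86.6 RPKM at 24 h (limma adjusted p = 0.0492). Rpf2, a large subunit factor, went from a mean of 27.2 RPKM at rest to 130.1 RPKM at 24 h (limma adjusted p = 1.99e-05), and Ddx24 from a mean of 52.1 RPKM at rest to 57.1 RPKM at 24 h (limma adjusted p = 0.306). Of 9 further genes of RNA polymerase I and its factors, 1 was higher, Cd3eap, which codes for a polymerase subunit and went from a mean of 7.51 RPKM at rest to 28.8 RPKM at 24 h (limma adjusted p = 2.04e-05). Ttf1, the terminator of ribosomal DNA transcription, had the lowest difference of that list and went from a mean of 14.3 RPKM at rest to 9.03 RPKM at 24 h (limma adjusted p = 0.0101), short of 2-fold. Of 7 RNA polymerase II subunits, 1 was higher: Polr2j went from a mean of 32.3 RPKM at rest to 78.8 RPKM at 24 h (limma adjusted p = 4.40e-06), whereas the largest subunit, Polr2a, went from a mean of 77.5 RPKM at rest to 79.98 RPKM at 24 h (limma adjusted p = 0.824). Of 20 RNA polymerase III genes, 3 were higher and 2 lower, so that in the 3 polymerase lists the shares of higher genes were near that of all genes. Polr3gl went from a mean of 24.8 RPKM at rest to 4.65 RPKM at 24 h (limma adjusted p = 9.76e-06), and its paralogue Polr3g, named after its values were seen, went the other way, from a mean of 6.14 RPKM at rest to 17.4 RPKM at 24 h (limma adjusted p = 2.09e-05). Both code for alternative forms of the same polymerase III subunit. At 8 h the median log2 difference of Th2 minus Th0 was 0.81 and 0.84 in the further small and large subunit genes and 0.50, 0.15 and 0.43 in the polymerase I, II and III lists, with 1 library per condition.

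Some of these values may hold reads of other genes. In the GENCODE vM21 transcripts, 62.7% of the 50-base windows of Ddx18 and 40.9% of those of Npm1 also occur in transcripts of other genes, most of them unnamed gene models, and 11 of the 50 genes shared over 5% of their windows in this way. Exons of 18 of the 50 genes overlap exons of a gene on the other strand, such as Nhp2 with Rmnd5b and Rrp9 with Parp3, and whether the counting used the strand is not given in the sources used here. How such reads were assigned is also not given there.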

How the data were processed

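RNA was sequenced on a NextSeq instrument. The authors deposited 1 table of RPKM values per gene symbol, made per the labels from reads aligned to GRCm38, with BWA among the tools of the submitters' processing notes; versions and strand handling are not given in the sources used here. All 24 columns were matched to samples by name. The labels say purified CD4+ cells where the study's methods say naive cells. Differences were computed on log2(RPKM + 0.5), a scale that makes folds of low genes smaller, where the mean reached 1 RPKM, with limma 3.58.1 in R 4.3.3 (intensity trend, Benjamini-Hochberg adjustment over all genes), called at an adjusted p under 0.05 and 2-fold. Time was tested over 20 libraries, and steps and conditions over the 18 cultures with time and condition as terms. Actinomycin libraries and single time points had 1 library each and no test. The fits were tested on simulated data. Depth was recovered from genes whose values are whole multiples of 1 step, within 0.02 of a whole number; 1081 of 1897 such single-transcript genes gave the same mapped reads. Tables and figures were made with Python 3.11.15, numpy 2.4.6, pandas 2.3.3, scipy 1.17.1 and matplotlib 3.10.9. Values of the libraries (from 12 h on as lowest, median and highest) are given, in each role group, for the gene with the highest mean and those with the largest and smallest difference at 24 h, for genes called against the common direction, and in other lists for the largest rise and lowest difference. Of the genes named by this rule, 1 is not reported here. The genes and lists were chosen with earlier results of these data known. Alternatives were other scalings, pseudocounts, filters, no intensity trend, the libraries of the compared times alone, and leaving out libraries, conditions or times.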

Additional observations from a re-analysis of the deposited data

Results flagged for a closer look

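For 13 of the 50 genes the Th2 to Th0 difference at 4 and 8 h was larger than at 12 to 24 h by a limma test of that difference itself. The fit was chosen after the values were seen and rests on 1 series of cultures per condition. Its late period holds the Th2 library of 24 h, and the part of base composition in these differences was not tested. The early minus late differences on the log2 scale were 1.17 for Polr1b in the RNA polymerase I group, 1.19 for Rrp9 of the U3 snoRNP, and 1.17 and 1.02 for the box H/ACA proteins Gar1 and Nhp2. Among small subunit factors they were 1.15 for Rrp12, 1.07 for Tsr1 and 1.11 for Bysl. Among large subunit factors they were 1.02 for Nop2, 1.06 for Nop16, 1.18 for Rrs1 and 1.37 for Rrp1b. Of the multifunctional proteins, Nolc1 stood at 1.17 and Mybbp1a at 1.08. Myc, which codes for a transcription factor known to act on ribosome biogenesis genes, was measured in the same libraries at 52.2, 73.1 and 157 RPKM in Th0, Th1 and Th2 at 4 h and at 79.5, 199 and 257 RPKM at 8 h, with 40.3 and 43.9 RPKM in resting cells; its part in these differences was not tested.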

How the results depend on the processing

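Of 239 recomputed counts of called genes, 235 stayed within 1.5 times the value given above. From 4 to 8 h the count was 32 and ran from 14 to 37 when the cultures of 1 condition were left out, with 14 without Th1. From 8 to 24 h the count of higher genes was 0 and ran from 0 to 7, with 1 without Th1 and 7 without Th2. Between Th2 and Th0, 28 genes were called when only the cultures of 4 and 8 h were used, an alternative chosen after seeing the data, and 0 over all times. The share of all genes called in that smaller fit is not given here, and each condition had 1 library at each of these times. At 8 h against resting cells the count ran from 30 to 46 when libraries were left out. Of 2303 recomputed values of single genes, 2229 kept their direction and side of the threshold, 36 lost their call, 37 gained one, and 1 changed sign: Ubtf at 12 h against resting cells was -0.039 under quantile normalization and 0.17 as given. At 24 h Polr1a lost its call in 5 alternatives (log2 difference 0.90 to 0.99) and Imp3 under quantile normalization. The causes were not tested. Median-of-ratios scaling and quantile normalization moved the median log2 difference of all genes at 24 h from -0.04 to 0.10 and 0.11, and the share of higher genes among all called genes from 42.3% to 51.5% and 52.4%. No paired analysis was possible because the cultures carry no replicate numbers that could serve as a block. The fits of steps and conditions hold time point and condition as terms, so steps are compared within conditions and conditions within time points. With 1 library per condition and time, differences between single libraries have no replicate check, and counting error is the only precision the depth gives.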
